A study of Mus musculus with 24 samples.

Results

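The genes described here encode the subunits of the vacuolar proton pump (V-ATPase) and the bicarbonate, chloride, ammonia and carbon dioxide handling proteins that work with it in the intercalated cells of the kidney. Members were every gene of the table whose symbol names a subunit of the V0 or V1 domain of the pump, and 16 genes given by name, with the forkhead transcription factor Foxi1 among them. This gave 39 of the 19426 genes listed, 23 by the subunit pattern and 16 by name. The rule uses symbols and no measured value, but it was set with earlier results of these data known. RNA of whole kidneys was compared between C57BL6 mice given a single dose of vehicle, of hPTH(1-34), a parathyroid hormone peptide called PTH here, or of YKL-05-099, which blocks salt-inducible kinases and, less selectively, other kinases. The labels name no mutation or transgene. An age of 13 weeks and collection 1 hour after PTH or 3 hours after YKL-05-099 are stated for kidneys measured by PCR. The authors describe the sequencing as done on these kidneys. No time is stated for vehicle and the times of the agents differ, so agent and time cannot be told apart. Each group held 8 libraries.

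V-ATPase hydrolyses ATP on a ring of A and B subunits in the cytosolic V1 domain and turns a rotor that carries protons through the membrane-bound V0 domain. Every cell uses the pump to acidify lysosomes and endosomes, and intercalated cells of the collecting duct also place it in the plasma membrane. There type A cells secrete acid into urine and return bicarbonate to blood through the exchanger Slc4a1, while type B cells secrete bicarbonate through pendrin, Slc26a4. Intercalated cells use particular isoforms of several subunits (B1, C2, G3, a4 and d2) beside or in place of the general ones. Not all of these isoforms are confined to intercalated cells. In mice Foxi1 is required for these cells to form and for Atp6v1b1 to be expressed. Slc4a4, Car4, Car14 and Car12 also serve bicarbonate reabsorption in other tubule segments, so the members do not all report on intercalated cells.

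Expression was given as FPKM, fragments per kilobase of transcript scaled to the total of each library. Depth, estimated from the steps between low values, was 6130000 to 7220000 fragments a library. The libraries listed 16362 to 16866 genes above 0, no 2 of them were identical, and pairwise correlations were 0.966 to 0.983. The design text gives an n of 6 a treatment where 8 libraries a group are listed, and Xist, the RNA of the inactive X chromosome, stood at 76.3 to 114 FPKM in all 24 libraries although the animals are labelled male. The labels do not tie libraries to separate animals, so p-values measure the spread between libraries. A legend of the authors calls the columns of a heatmap individual mice, without naming libraries. PTH libraries 1 to 4 stood apart from PTH libraries 5 to 8. In 17.0% of the 13991 genes tested the ranges of these libraries did not overlap, against 2.75% for the same numbers in vehicle and 6.64% in YKL-05-099. The labels give no batch for these numbers, and the division was noticed in the data. Results that rest on it are given with and without these libraries, and p-values of those fits are descriptions only.

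Both named markers of the set were well expressed. In vehicle libraries Foxi1 was at 19.8 ± 2.69 FPKM and Atp6v1b1 at 64.1 ± 2.54 FPKM (SD, n = 8), and all 12 intercalated cell markers, each of them a member, were tested. Principal cell markers, those of the neighbouring collecting duct cell, summed to 437 to 577 FPKM in vehicle, 430.2 to 590.2 FPKM after PTH and 397 to 654 FPKM after YKL-05-099, against 427 to 486, 424 to 464 and 385 to 458 FPKM for the intercalated cell markers. In RNA of a whole kidney, fewer cells of a type and less RNA per cell cannot be told apart. Of the 39 members, 37 reached a mean of 0.5 FPKM and were tested. The testis-type subunit gene Atp6v1e2 was at 0 to 0.15 FPKM. The pseudogene Atp6v0c-ps2 was listed at 0 in all libraries but YKL-05-099 replicates 5 and 6, at 3.55 and 3.76 FPKM. Reads of this copy and of Atp6v0c cannot be told apart with certainty.

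Promoters are shown for Foxi1, for its known target Atp6v1b1 and for the members with the largest differences after YKL-05-099 that have an entry. Each window holds 300 bases, most of them before a gene start, from RefSeq on GRCm38.p6, and 27 of 39 members had at least 1 window, 32 windows in all. Capitals mark a match, on either strand, to the forkhead core TGTTTAC or the shorter TGTTTA within it, to the cAMP response element TGACGTCA or its shorter core TGACG within it, or to CACGTG, the core of lysosomal gene elements. The Foxi1 window lies at chr11:34208040-34208339 (minus strand), Atp6v1b1 at chr6:83742767-83743066 (plus), Atp6v1g3 at chr1:138273488-138273787 (plus), Atp6v0d1 at chr8:105566015-105566314 (minus) and the 1 of 3 Atp6v0c windows with a match at chr17:24169401-24169700 (minus).
Foxi1: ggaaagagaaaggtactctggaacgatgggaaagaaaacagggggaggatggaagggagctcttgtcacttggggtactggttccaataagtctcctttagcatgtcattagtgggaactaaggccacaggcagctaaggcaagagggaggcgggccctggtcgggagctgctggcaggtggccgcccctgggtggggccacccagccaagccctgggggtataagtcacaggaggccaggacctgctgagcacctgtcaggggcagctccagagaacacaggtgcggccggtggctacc
Atp6v1b1: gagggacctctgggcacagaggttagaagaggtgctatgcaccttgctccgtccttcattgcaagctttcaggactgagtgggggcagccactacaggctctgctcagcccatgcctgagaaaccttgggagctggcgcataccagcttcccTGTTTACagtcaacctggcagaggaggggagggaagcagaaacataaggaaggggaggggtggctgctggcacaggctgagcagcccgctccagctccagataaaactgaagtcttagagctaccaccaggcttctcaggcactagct
Atp6v1g3: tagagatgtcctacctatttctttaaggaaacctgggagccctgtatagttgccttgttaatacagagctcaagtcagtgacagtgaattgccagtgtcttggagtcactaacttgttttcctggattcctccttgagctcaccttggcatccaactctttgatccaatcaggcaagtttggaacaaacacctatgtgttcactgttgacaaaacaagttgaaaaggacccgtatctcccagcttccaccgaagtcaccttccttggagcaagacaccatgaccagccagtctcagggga
Atp6v0d1: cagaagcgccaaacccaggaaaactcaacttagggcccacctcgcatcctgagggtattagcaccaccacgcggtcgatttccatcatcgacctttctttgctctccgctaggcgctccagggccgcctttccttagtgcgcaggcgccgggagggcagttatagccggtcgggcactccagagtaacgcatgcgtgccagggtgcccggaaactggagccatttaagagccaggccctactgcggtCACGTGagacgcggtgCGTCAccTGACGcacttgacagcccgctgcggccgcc
Atp6v0c: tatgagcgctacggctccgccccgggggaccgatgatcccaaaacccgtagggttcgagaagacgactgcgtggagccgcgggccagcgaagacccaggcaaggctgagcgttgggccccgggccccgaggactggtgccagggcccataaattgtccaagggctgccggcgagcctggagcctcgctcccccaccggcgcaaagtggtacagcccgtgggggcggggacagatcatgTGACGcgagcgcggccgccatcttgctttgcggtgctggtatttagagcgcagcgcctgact

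The Atp6v1b1 window was the only member window with TGTTTAC, at offset -98 from the start (whose base counts as 0), a match found in 3.65% of all 32851 windows. TGTTTA stood in 2 of 32 member windows (Atp6v1b1 and Car12) and in 13.4% of all. TGACG stood in 6 of 32 (Atp6v0b, Atp6v0c, Atp6v0d1, Atp6v1a, Atp6v1d and Atp6v1f) against 20.8% of all, and CACGTG in 4 of 32 (Atp6v0b, Atp6v0d1, Atp6v0e and Atp6v1a) against 7.15%. No member window held TGACGTCA, which 1.79% of all windows do. The general d1 subunit window held TGACG and CACGTG, and the Foxi1 and Atp6v1g3 windows held none of these letters. These matches describe the sequence and were not tested as sites.

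After PTH, 6 of the 37 members tested changed (16.2%), against 17.1% of all genes. A gene was called at a Benjamini-Hochberg adjusted p below 0.05 in a limma model over all 24 libraries. Higher were Atp6v0d1, Atp6v0c and Atp6v1b2 (3 of 37, against 6.00% of all genes), and lower were Atp6v1b1, Atp6v1h and Atp6v1g1 (3 of 37, against 11.1%). After YKL-05-099, 12 of 37 changed (32.4%), against 17.7% of all genes. Of these, 7 were higher (against 6.26% of all genes), namely Atp6v0c, Atp6v0d1, Atp6v1b2, Atp6v0a1, Atp6v0e2, Car14 and Car4, and 5 were lower (against 11.5%), namely Foxi1, Atp6v1g3, Atp6v1h, Atp6v1b1 and Atp6v1c2. The median log2 difference of the members was 0.01 after PTH and 0.04 after YKL-05-099, beside -0.05 over all genes in both. The comparisons share the vehicle libraries, so a gene that is called in both is not 2 independent observations. With the transcript-length and GC slope of each library as covariates, 4 members were called after PTH and 6 after YKL-05-099. The shares of all genes were 12.1% and 8.86%. GC slopes ran higher in YKL-05-099 than in vehicle libraries, so slopes and agent cannot be fully told apart in that fit.

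**Figure D1:**
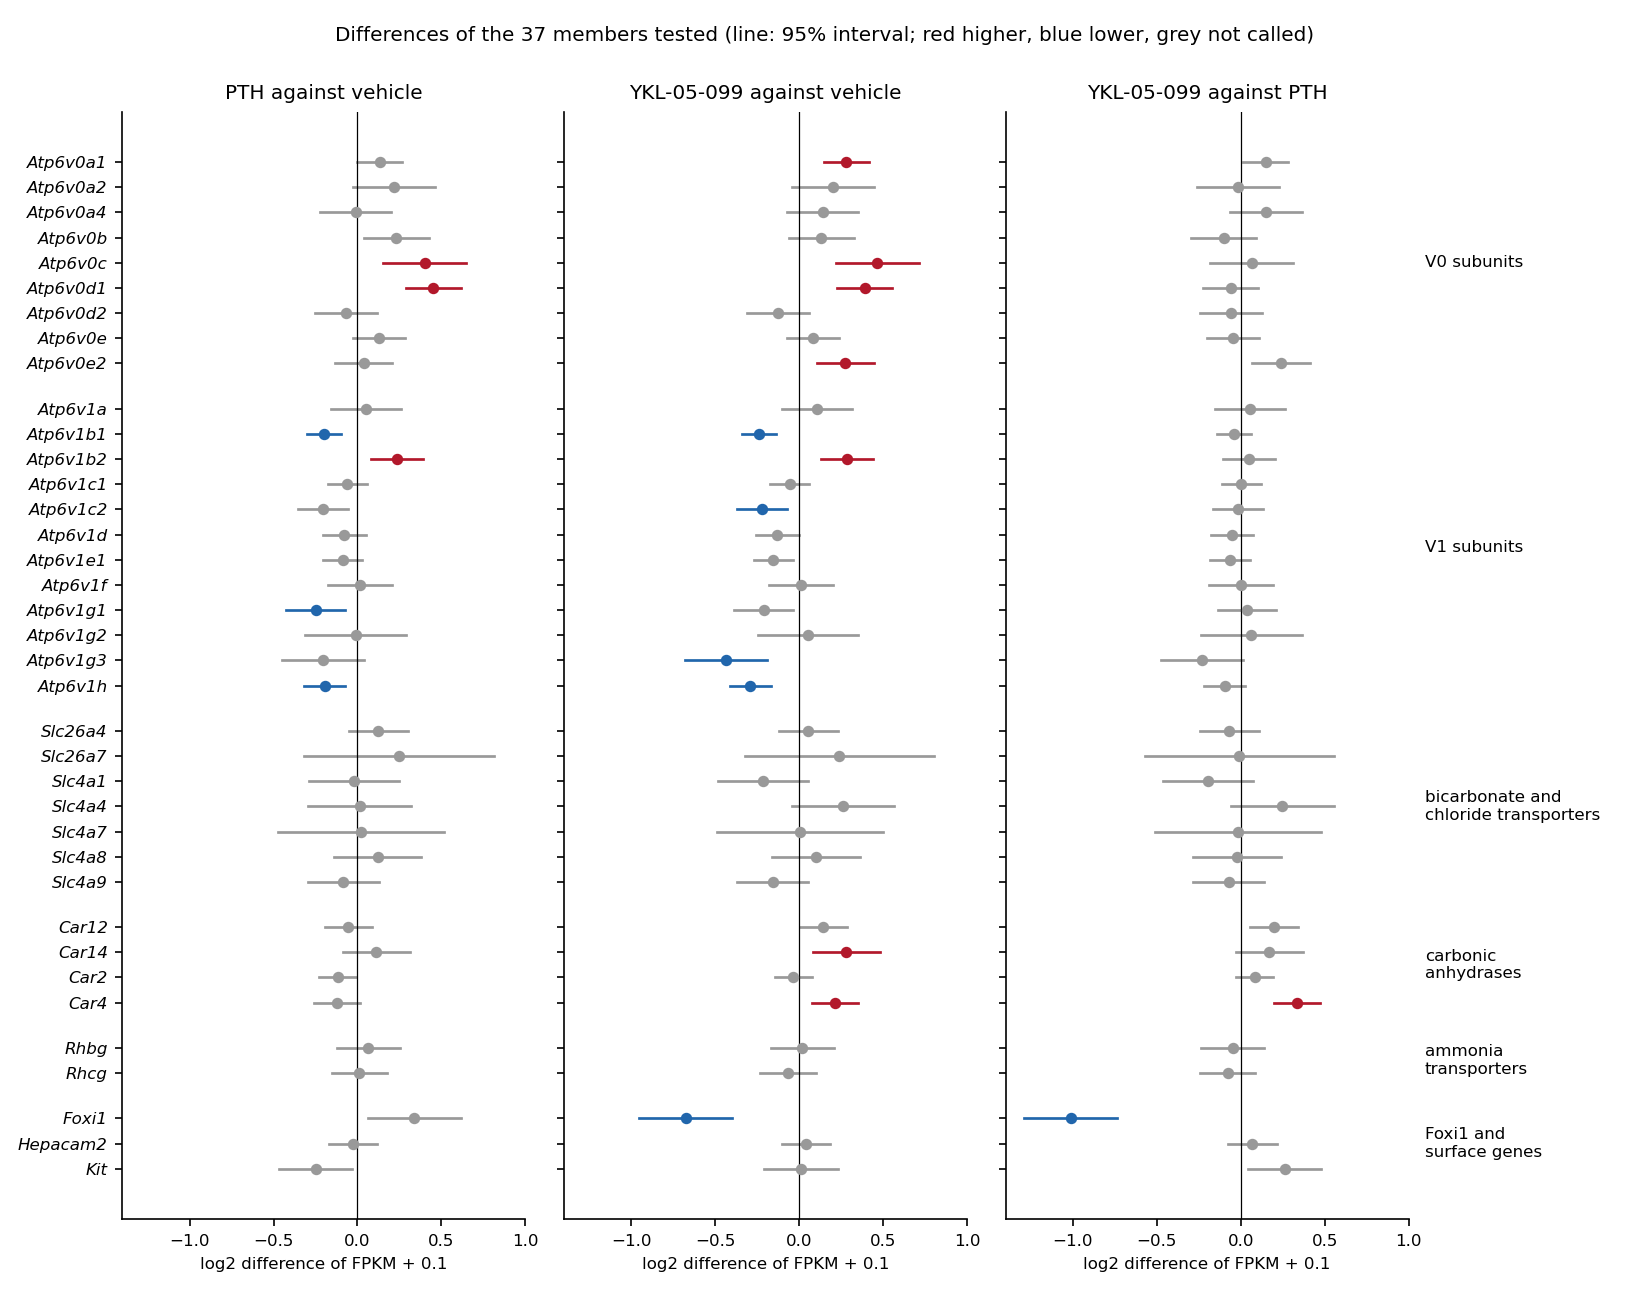
Log2 difference (x axis, of FPKM + 0.1) of the 37 members tested, grouped by role, for each comparison, with points for the estimate and lines for its 95% interval. Calls (adjusted p below 0.05) are red where higher and blue where lower, with 6 for PTH, 12 for YKL-05-099 and 2 for YKL-05-099 against PTH, where Foxi1 lies farthest from 0.

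Foxi1 showed the largest difference of any member called, and it fell after YKL-05-099. Its level was 16.2, 19.0 and 23.7 FPKM in vehicle libraries (lowest, median and highest), 19.9, 24.1 and 31.5 FPKM after PTH and 8.41, 11.1 and 21.2 FPKM after YKL-05-099. After YKL-05-099, 7 of 8 libraries lay below every vehicle library, and replicate 1 alone, at 21.2 FPKM, lay among them. The log2 difference was -0.67 ± 0.13 (SE; adjusted p = 0.00146, limma), a level 0.626 times that of vehicle. Over leaving out each of the 24 libraries it ran from -0.79 to -0.60 with an adjusted p of at most 0.00401, and with the slope covariates and the other refits the adjusted p was at most 0.00704. After PTH the value was higher by 0.34 ± 0.13, which did not pass (adjusted p = 0.0836, limma), and the PTH and vehicle ranges overlapped. That PTH value passed with median-ratio scaling, with library weights, in a fit of the 2 groups alone and without YKL-05-099 replicate 1 (adjusted p down to 0.0255, limma).

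**Figure D2:**
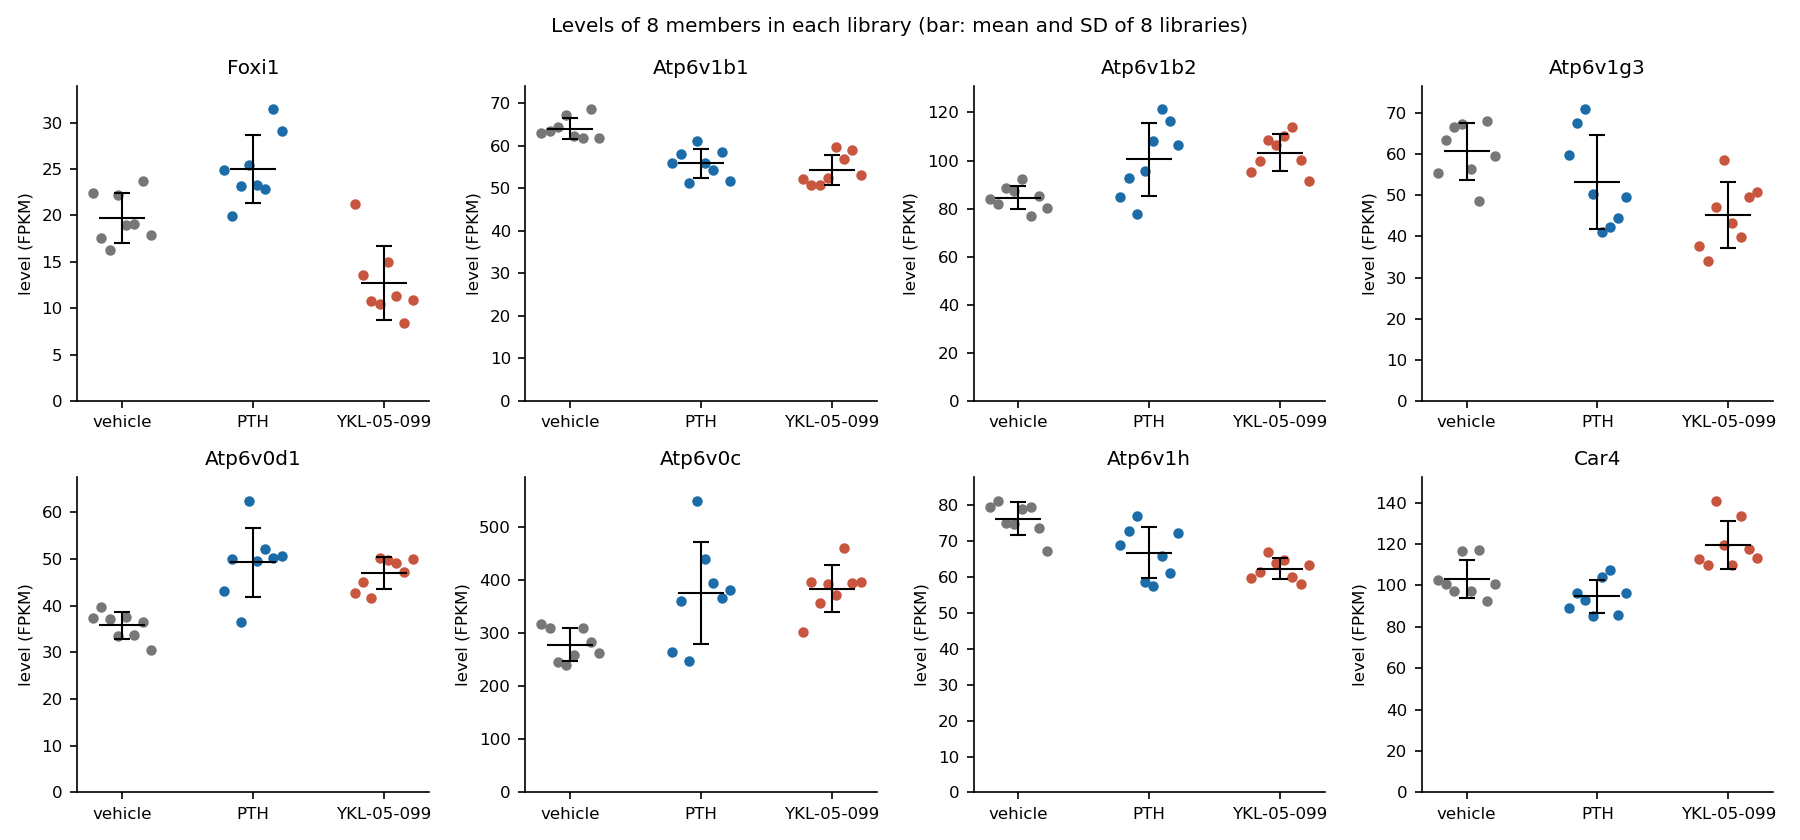
Level (y axis, FPKM) of 8 members in every library of the 3 groups, with the bar and whiskers for the mean and SD of 8 libraries. Foxi1 is below every vehicle library in 7 of the 8 YKL-05-099 libraries, Atp6v1b1 is lower than every vehicle library in both treated groups, and Atp6v0d1 is higher than every vehicle library after YKL-05-099.

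Among V1 subunits the change fell differently on the isoforms of the B subunit, which binds nucleotide beside the A subunit. Atp6v1b1, the intercalated cell form, was at 61.7, 63.3 and 68.6 FPKM in vehicle (lowest, median, highest), 51.3, 56.0 and 61.2 FPKM after PTH and 50.8, 52.8 and 59.6 FPKM after YKL-05-099. Neither treated range overlapped that of vehicle. Ranges that did not overlap were seen for 1 member after PTH (2.84% of all genes) and for 3 after YKL-05-099 (Atp6v1b1, Atp6v1h and Atp6v0d1, 4.74% of all genes). The log2 difference of Atp6v1b1 was -0.20 ± 0.05 after PTH (adjusted p = 0.0051, limma) and -0.24 ± 0.05 after YKL-05-099 (adjusted p = 0.00168, limma). The PTH call held over each of the 24 libraries left out and with the slope covariates (-0.24) and ended without PTH libraries 5 to 8 (-0.18, adjusted p = 0.0582). In YKL-05-099 libraries Atp6v1b1 was at 50.8 to 52.5 FPKM in replicates 1 to 4 and 53.1 to 59.6 FPKM in replicates 5 to 8, all of them below vehicle.

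The general B subunit gene Atp6v1b2 went the other way. Its level was 76.8, 84.7 and 92.2 FPKM in vehicle, 77.6, 101 and 121 FPKM after PTH and 91.5, 103 and 114 FPKM after YKL-05-099, with 1 of the 8 YKL-05-099 libraries inside the vehicle range. It rose by 0.29 ± 0.07 after YKL-05-099 (adjusted p = 0.0101, limma) and by 0.23 ± 0.07 after PTH (adjusted p = 0.0309, limma). The PTH call rested on PTH libraries 5 to 8, at 106 to 121 FPKM against 77.6 to 95.8 FPKM in 1 to 4. Without libraries 5 to 8 it was 0.05 (adjusted p = 0.707) and without 1 to 4 it was 0.42 (adjusted p = 2.68e-05). Leaving out any 1 of vehicle replicates 2, 6 and 8 or PTH replicates 5 to 8 also ended the PTH call (adjusted p up to 0.0745). The slope covariates ended both calls (adjusted p = 0.235 after PTH and 0.116 after YKL-05-099).

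Atp6v1h encodes the H subunit, which ties V1 to V0 and holds back free V1. It was at 67.3, 77.0 and 81.3 FPKM in vehicle, 57.6, 67.4 and 77.1 FPKM after PTH and 58.1, 62.5 and 66.9 FPKM after YKL-05-099. All YKL-05-099 libraries lay below all vehicle libraries, while the PTH range reached into that of vehicle. It fell by 0.29 on the log2 scale after YKL-05-099 (SE 0.06, adjusted p = 0.00178, limma), a call that every refit kept (adjusted p at most 0.0363). After PTH the difference was -0.20 (adjusted p = 0.0218, limma), and this call was lost without PTH replicate 5 (adjusted p = 0.0534), with median-ratio scaling, in a fit of the 2 groups alone, without the 4 libraries richest in urothelium markers, without PTH libraries 5 to 8 and with the slope covariates (adjusted p up to 0.325).

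The G subunits form the outer stalks with E. Atp6v1g3, the renal isoform, was at 48.5, 61.6 and 68.1 FPKM in vehicle, 41.1, 49.95 and 70.9 FPKM after PTH and 34.0, 45.3 and 58.7 FPKM after YKL-05-099. Of the YKL-05-099 libraries 5 of 8 lay below every vehicle library and the others overlapped. Its log2 difference after YKL-05-099 was -0.44 ± 0.12 (adjusted p = 0.0115, limma), kept over all 24 libraries left out and lost with the slope covariates (-0.27, adjusted p = 0.18). PTH libraries 5 to 8 lay at 41.1 to 49.5 FPKM, below PTH libraries 1 to 4 at 50.4 to 70.9 FPKM, and the PTH difference over all 8 did not pass (-0.21, adjusted p = 0.245). It was -0.45 without PTH libraries 1 to 4 (adjusted p = 0.00533, limma) and 0.03 without 5 to 8.

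Atp6v1g1, the general G isoform, was at 189, 210 and 230 FPKM in vehicle, 139, 177 and 212 FPKM after PTH and 155, 178 and 220 FPKM after YKL-05-099. Of 8 libraries, 4 of PTH and 6 of YKL-05-099 lay below the vehicle range, and the others overlapped it. The PTH difference of -0.25 ± 0.08 passed (adjusted p = 0.0411, limma), and the YKL-05-099 difference of -0.21 did not (adjusted p = 0.082). The PTH call came from PTH libraries 5 to 8, at 139 to 162 FPKM against 193 to 212 FPKM in 1 to 4. The call ended when any 1 library was left out among vehicle replicates 1, 2, 3, 4, 6 and 8 or PTH replicates 5 to 8 (-0.29 to -0.20 over all 24 left out, adjusted p up to 0.0977), and its value without PTH libraries 5 to 8 was -0.03.

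Atp6v1c2, the C isoform of intercalated and some other epithelial cells, was at 22.9, 26.6 and 28.6 FPKM in vehicle, 19.99, 22.4 and 25.1 FPKM after PTH and 17.6, 22.8 and 26.3 FPKM after YKL-05-099. Both treated groups overlapped vehicle. It fell by 0.22 on the log2 scale after YKL-05-099 (SE 0.07, adjusted p = 0.0343, limma), and the PTH value was -0.21 (adjusted p = 0.0504). The YKL-05-099 call ended when any 1 library was left out among vehicle replicates 2, 3, 4 and 7 or YKL-05-099 replicates 1 to 4 (-0.25 to -0.17 over all 24 left out, adjusted p up to 0.0679). It also ended with median-ratio scaling, quantile normalization, the replicate block, without the 4 libraries richest in urothelium markers and with the slope covariates (-0.14, adjusted p = 0.203). The PTH value passed in 7 of 24 fits with a library left out and in 7 of 14 other refits, and was -0.30 without PTH libraries 1 to 4 (adjusted p = 0.0113, limma) and -0.12 without 5 to 8 (adjusted p = 0.475). In the YKL-05-099 group replicates 1 to 4 were at 17.6 to 21.96 FPKM and replicates 5 to 8 at 23.7 to 26.3 FPKM.

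The other V1 genes did not pass in either comparison with vehicle over all libraries. They are the catalytic A subunit gene Atp6v1a (vehicle median 99.8 FPKM), the C isoform Atp6v1c1 (51.5 FPKM), the rotor genes Atp6v1d (103 FPKM) and Atp6v1f (210 FPKM), the stalk gene Atp6v1e1 (252 FPKM) and the neural-type G isoform Atp6v1g2 (3.08 FPKM). Without PTH libraries 1 to 4 the PTH values of Atp6v1a (0.31, adjusted p = 0.00318, limma) and Atp6v1e1 (-0.20, adjusted p = 0.00816, limma) passed. The YKL-05-099 value of Atp6v1e1, -0.15 with an adjusted p of 0.0593, passed without vehicle replicate 8, without PTH replicate 3 and in 5 other refits (adjusted p down to 0.0141, limma). Over the 12 V1 genes tested, 1 was higher (6.00% of all genes) and 3 were lower (11.1% of all genes) after PTH. After YKL-05-099 1 was higher (6.26% of all genes) and 4 were lower (11.5% of all genes). The median log2 difference was -0.08 after PTH and -0.14 after YKL-05-099. With the slope covariates it was -0.02 and -0.05, with median-ratio scaling -0.04 and -0.10, and after PTH it was -0.21 without PTH libraries 1 to 4 and -0.03 without 5 to 8.

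Of 9 V0 genes tested, 2 were higher after PTH (6.00% of all genes) and 4 after YKL-05-099 (6.26% of all genes), and 0 were lower (11.1% and 11.5% of all genes). With the slope covariates 2 were higher after PTH and 1 after YKL-05-099, and without PTH libraries 5 to 8 there were 1 higher and 1 lower after PTH. The median log2 difference was 0.13 and 0.20, and with the slope covariates 0.09 and 0.12. The clearest was Atp6v0d1, the general d subunit that joins the rotor to the membrane ring. Its level was 30.6, 36.8 and 39.7 FPKM in vehicle, 36.4, 49.99 and 62.4 FPKM after PTH and 41.6, 48.1 and 50.2 FPKM after YKL-05-099. Every YKL-05-099 library and 7 of 8 PTH libraries lay above all vehicle libraries, and PTH replicate 3, at 36.4 FPKM, lay among them. It rose by 0.45 ± 0.08 after PTH (adjusted p = 0.000235, limma) and by 0.39 ± 0.08 after YKL-05-099 (adjusted p = 0.00168, limma). No refit ended either call, and the highest adjusted p was 0.0152 for PTH and 0.0229 for YKL-05-099.

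Atp6v0c, which encodes the proteolipid that makes up most of the proton-carrying ring, was the most abundant member. It was at 239, 272 and 316 FPKM in vehicle, 247, 373 and 549 FPKM after PTH and 301.3, 393 and 459 FPKM after YKL-05-099. PTH replicate 4 was the highest library, PTH replicates 1 and 3 lay inside the vehicle range, and 7 of 8 YKL-05-099 libraries lay above it. The rise was 0.40 ± 0.12 after PTH (adjusted p = 0.0211, limma) and 0.46 ± 0.12 after YKL-05-099 (adjusted p = 0.00879, limma). Both calls held over each of the 24 libraries left out and both were lost with the slope covariates (0.26, adjusted p = 0.0985, and 0.27, adjusted p = 0.102). The PTH call was also lost without PTH libraries 5 to 8 (0.29, adjusted p = 0.272).

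Atp6v0a1, an a isoform that lines the proton path outside intercalated cells too, was at 12.3, 14.2 and 15.6 FPKM in vehicle, 13.1, 15.8 and 17.7 FPKM after PTH and 15.5, 17.0 and 19.8 FPKM after YKL-05-099. Only 1 YKL-05-099 library lay inside the vehicle range. It rose by 0.28 ± 0.06 after YKL-05-099 (adjusted p = 0.00399, limma), a call lost with the slope covariates alone (adjusted p = 0.0785), and its PTH value was 0.13 (adjusted p = 0.166, and 0.0496 with median-ratio scaling). Atp6v0e2, an isoform of the small e subunit, was at 13.8, 16.1 and 18.5 FPKM in vehicle, 13.4, 16.2 and 19.4 FPKM after PTH and 16.4, 19.5 and 24.1 FPKM after YKL-05-099. The groups overlapped at the lower end of the YKL-05-099 libraries. Its rise of 0.28 ± 0.08 after YKL-05-099 (adjusted p = 0.0216, limma) was lost without YKL-05-099 replicate 6 (0.23, adjusted p = 0.05) and with the slope covariates. The remaining V0 genes Atp6v0a2, Atp6v0a4, Atp6v0b, Atp6v0d2 and Atp6v0e did not pass in either comparison over all libraries, with vehicle medians of 10.1, 99.0, 63.7, 37.4 and 90.1 FPKM. The PTH value of Atp6v0a2 passed without PTH libraries 1 to 4 (0.49, adjusted p = 0.00183, limma), and that of Atp6v0b passed with the slope covariates (0.22, adjusted p = 0.0289, limma).

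Within a library, the share of each intercalated cell isoform in the summed level of its subunit was computed from FPKM, which is a level per length. Atp6v1b1 made up 43.1% ± 1.39 of the B subunit level in vehicle, 36.0% ± 3.57 after PTH and 34.5% ± 1.84 after YKL-05-099 (SD, n = 8). The ranges were 40.3% to 44.6%, 30.9% to 39.8% and 31.9% to 37.04%, so every library of either treated group lay below every vehicle library. PTH libraries 1 to 4 lay at 38.5% to 39.8% and 5 to 8 at 30.9% to 34.1%, so the PTH mean joins separate sets. Atp6v0d2 made up 51.5% ± 2.27 of the d subunit level in vehicle, 42.6% ± 5.75 after PTH and 42.5% ± 3.12 after YKL-05-099. All 8 YKL-05-099 libraries and 7 of 8 PTH libraries lay below the vehicle range. Atp6v0d2 itself did not pass (-0.07 after PTH and -0.13 after YKL-05-099 on the log2 scale), so the lower share went with the higher level of Atp6v0d1. The shares of Atp6v1g3 (22.2% ± 2.37, 22.6% ± 1.91 and 19.7% ± 3.45), Atp6v1c2 (33.5% ± 2.47, 31.2% ± 2.23 and 30.9% ± 2.46) and Atp6v0a4 (80.8% ± 1.75, 78.7% ± 2.53 and 79.6% ± 1.80) overlapped between the groups.

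**Figure D3:**
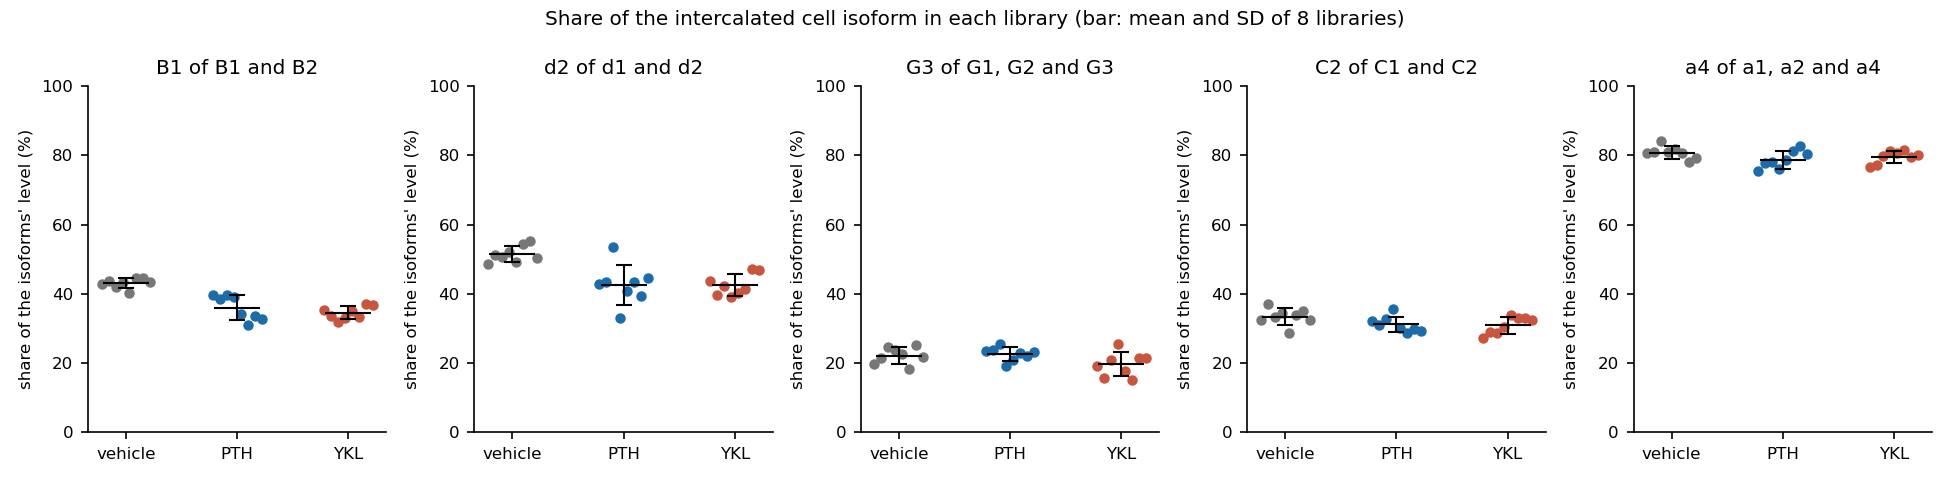
Share (y axis, percent) of the intercalated cell isoform in the summed FPKM of its subunit for every library, with the bar and whiskers for the mean and SD of 8 libraries. The B1 share lies below 40.3%, the lowest vehicle value, in all 16 treated libraries, and the G3, C2 and a4 shares overlap between groups.

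Of the 5 intercalated cell isoforms, 0 were higher and 3 lower after YKL-05-099 (Atp6v1b1, Atp6v1g3 and Atp6v1c2), and of 6 general isoforms of the same subunits 3 were higher (Atp6v0a1, Atp6v0d1 and Atp6v1b2) and 0 lower. Over all genes 6.26% were higher and 11.5% lower. The median log2 difference was -0.22 for the former and 0.24 for the latter. After PTH, 1 of the 5 was lower (Atp6v1b1), and of the 6 there were 2 higher (Atp6v0d1 and Atp6v1b2) and 1 lower (Atp6v1g1), with medians of -0.20 and 0.17, while 6.00% of all genes were higher and 11.1% lower. The PTH medians were -0.22 and 0.30 without PTH libraries 1 to 4, and -0.12 and 0.01 without 5 to 8. With the slope covariates the medians were -0.08 and 0.07 after PTH and -0.14 and 0.15 after YKL-05-099. With these covariates 1 of 5 and 1 of 6 were called in each comparison, Atp6v1b1 lower and Atp6v0d1 higher. Transcript length and the log2 difference had a rank correlation of 0.10 after PTH and 0.05 after YKL-05-099 over the 37 members. Over 13780 genes it was 0.15 and 0.09, and genes are not independent points. Transcript GC was 50.4% to 56.0% in the members called higher after YKL-05-099 and 39.4% to 53.2% in those called lower. The relation of GC to the differences was not tested.

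No bicarbonate or chloride transporter of the set passed in either comparison with vehicle over all libraries. Slc4a1, the exchanger of type A cells and also of red cells, was at 10.6, 11.7 and 18.9 FPKM in vehicle, 10.7, 12.1 and 15.9 FPKM after PTH and 7.25, 11.1 and 16.1 FPKM after YKL-05-099. Vehicle replicate 7 was high, and all groups overlapped. Its log2 difference was -0.02 after PTH (95% interval -0.29 to 0.25) and -0.22 after YKL-05-099 (95% interval -0.48 to 0.05). With the slope covariates the YKL-05-099 value was -0.39 and passed (adjusted p = 0.0415, limma).

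Pendrin, Slc26a4, was at 26.0, 29.1 and 31.5 FPKM in vehicle, 28.2, 31.8 and 35.1 FPKM after PTH and 22.5, 29.3 and 37.8 FPKM after YKL-05-099. The YKL-05-099 libraries spread on both sides of vehicle. Its difference was 0.12 after PTH (95% interval -0.05 to 0.30) and 0.06 after YKL-05-099 (95% interval -0.12 to 0.23). Slc4a9, the basolateral transporter of type B cells, had a median of 39.5 FPKM in vehicle, 36.8 FPKM after PTH and 34.9 FPKM after YKL-05-099, and differed by -0.09 and -0.16 without passing. The lowly expressed Slc4a7, Slc4a8 and Slc26a7 had vehicle medians of 1.75, 1.52 and 0.77 FPKM. The values of Slc26a7 rest on few fragments. The long transcripts of Slc4a7 and Slc4a8 (8132 and 11790 bases) gather more fragments at such levels.

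Carbonic anhydrases interconvert carbon dioxide and bicarbonate. The membrane-bound Car4 was at 92.2, 101 and 117 FPKM in vehicle, 85.0, 94.5 and 107 FPKM after PTH and 109.7, 115 and 141 FPKM after YKL-05-099. It stood highest after YKL-05-099, with overlap with vehicle and none with PTH. It rose by 0.21 ± 0.06 over vehicle (adjusted p = 0.0236, limma), a call lost without vehicle replicate 7, YKL-05-099 replicate 3 or YKL-05-099 replicate 6 (0.18 to 0.24 over all 24 left out, adjusted p up to 0.0525). Car14, also bound to the membrane, was at 75.6, 95.3 and 114 FPKM in vehicle, 91.2, 94.5 and 140 FPKM after PTH and 94.2, 112 and 134 FPKM after YKL-05-099. All groups overlapped. Its rise of 0.28 ± 0.10 after YKL-05-099 (adjusted p = 0.0421, limma) ended when any 1 library was left out among vehicle replicates 3, 4, 6, 7 and 8 or YKL-05-099 replicates 3, 4, 6, 7 and 8 (0.24 to 0.33 over all 24 left out, adjusted p up to 0.0882). Both enzymes are known from the proximal tubule. Of 10 proximal tubule markers, 3 (Gatm, Slc34a1 and Aqp1) were also higher after YKL-05-099, against 6.26% of all genes. The list summed to 2408 to 2800 FPKM in vehicle and 2990 to 4092 FPKM after YKL-05-099, and its part in these results was not tested. The cytosolic Car2, with 303, 274 and 292 FPKM as group medians, and Car12, with 87.6, 80.6 and 93.9 FPKM, did not pass. Of the 4 carbonic anhydrases, 1 was called higher after YKL-05-099 with the slope covariates, where 8.86% of all genes were called. Without PTH libraries 5 to 8 it was also 1, where 21.2% were called. At least 1 of the Car4 and Car14 calls was thus lost in each of these fits.

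The ammonia transporters of the collecting duct did not pass. Rhcg had medians of 47.9, 47.1 and 45.3 FPKM and Rhbg of 12.8, 14.4 and 13.3 FPKM in vehicle, PTH and YKL-05-099. Their 95% intervals on the log2 scale ran from -0.15 to 0.18 and -0.12 to 0.25 after PTH, and from -0.23 to 0.10 and -0.17 to 0.21 after YKL-05-099. The adhesion molecule Hepacam2, an intercalated cell marker, had medians of 13.5, 13.6 and 14.5 FPKM and did not pass. The receptor gene Kit, also of intercalated and mast cells, was at 3.72, 4.19 and 4.66 FPKM in vehicle, 2.82, 3.45 and 4.86 FPKM after PTH and 3.70, 4.34 and 5.15 FPKM after YKL-05-099. The lowest PTH libraries were replicates 1 to 4. Its PTH difference of -0.25 did not pass (adjusted p = 0.106). It was -0.50 without PTH libraries 5 to 8 (adjusted p = 0.00144, limma), 0.00 without 1 to 4, -0.38 with the slope covariates (adjusted p = 0.0103, limma) and -0.31 without PTH replicate 7 (adjusted p = 0.0336, limma). Mast cell markers summed to no more than 0.96 FPKM in any library.

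Several members differed within the PTH group more than between the groups. Slc4a4, the sodium bicarbonate cotransporter of the proximal tubule, was at 110.0, 106, 107 and 87.5 FPKM in PTH replicates 1, 2, 3 and 4 and at 182, 230.3, 187 and 173 FPKM in replicates 5, 6, 7 and 8. Vehicle libraries lay between, at 116 to 169 FPKM, so PTH libraries 1 to 4 were all below and 5 to 8 all above every vehicle library. The difference from vehicle was 0.01 over all 8, 0.47 without PTH libraries 1 to 4 (adjusted p = 0.000465, limma) and -0.44 without 5 to 8 (adjusted p = 0.00213, limma). With either set of PTH libraries left out, the YKL-05-099 difference of Slc4a4, 0.26, also passed (adjusted p = 0.0119 and 0.0123, limma, against 0.229 with all), as it did in a fit of the 2 groups alone (adjusted p = 0.0109, limma). Atp6v0a4, an a isoform used by intercalated cells, was at 79.7 to 83.0 FPKM in PTH libraries 1 to 4. In 5 to 8 it was at 114 to 134 FPKM, with vehicle at 90.8 to 118 FPKM. Its difference was -0.01 over all 8, 0.30 without 1 to 4 (adjusted p = 0.0024, limma) and -0.32 without 5 to 8 (adjusted p = 0.0036, limma). The division was noticed in these data and both genes were described after their values were seen. The p-values without either set of PTH libraries are therefore descriptions and no independent support.

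In all, 12 of the 37 members had ranges that did not overlap between PTH libraries 1 to 4 and 5 to 8, against 17.0% of all genes tested. In vehicle 0 of 37 members had such ranges (2.75% of all genes), and in YKL-05-099 there were 5 (6.64% of all genes). Higher in PTH 5 to 8 were Slc4a4, Atp6v0a4, Atp6v1a, Atp6v1b2, Car12, Atp6v0a2 and Kit, and lower were Atp6v1e1, Atp6v1g1, Atp6v1g3, Slc4a9 and Atp6v1c2. The 5 in YKL-05-099, all higher in 5 to 8, were Atp6v1b1, Rhcg, Slc4a9, Atp6v0d2 and Atp6v1c2. Without PTH libraries 1 to 4, 14 members were called against vehicle (31.4% of all genes), and without 5 to 8 there were 4 (8.38% of all genes). The slope of a library's values on transcript length, in log2 units per doubling, was -0.11 to 0.02 in PTH libraries 1 to 4 and 0.02 to 0.08 in 5 to 8, against -0.05 to 0.02 in vehicle and -0.07 to 0.10 in YKL-05-099. PTH replicate 4 also had a GC slope of 0.31 log2 units per 10 percent. The other PTH libraries were at -0.11 to 0.05, vehicle at -0.10 to 0.003 and YKL-05-099 at -0.03 to 0.09. The part of these slopes in the division of the PTH libraries was not tested.

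**Figure D4:**
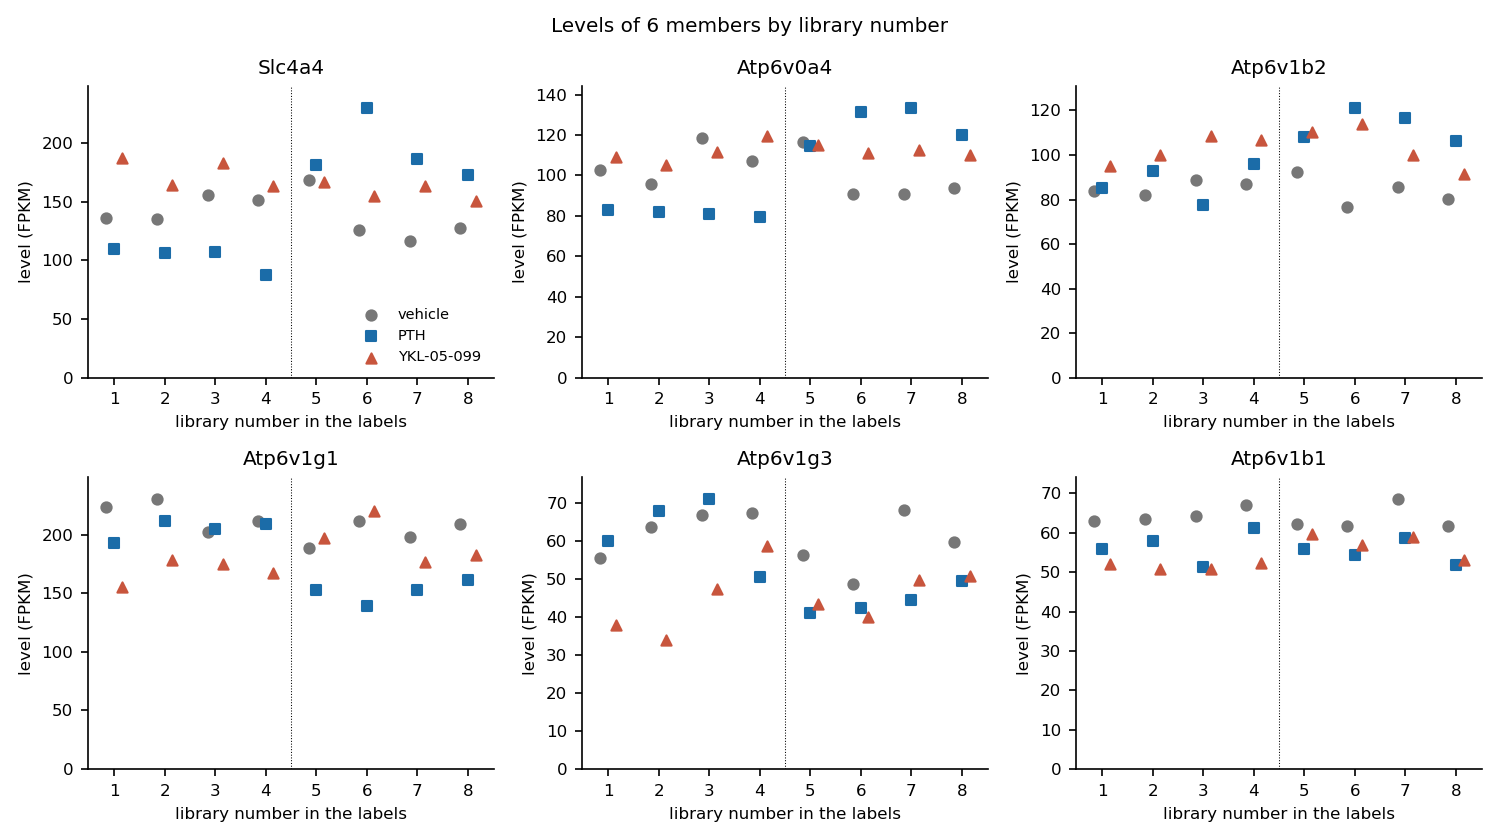
Level (y axis, FPKM) of 6 members against the library number in the labels, with circles for vehicle, squares for PTH and triangles for YKL-05-099. PTH values of Slc4a4 are at 87.5 to 110.0 FPKM left of the dotted line and 173 to 230.3 FPKM right of it, while Atp6v1b1 of PTH libraries is below vehicle on both sides.

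YKL-05-099 and PTH libraries were compared directly, at times that differ, so the values describe these groups and not the agents at matched exposure. Of the 37 members 2 changed (5.41%), against 6.42% of all genes, with 1 higher (2.84% of all genes) and 1 lower (3.58%). Foxi1 was lower by 1.01 ± 0.13 on the log2 scale (adjusted p = 2.18e-05, limma), with 8.41 to 21.2 FPKM after YKL-05-099 and 19.9 to 31.5 FPKM after PTH, where only YKL-05-099 replicate 1 reached the PTH range. Car4 was higher by 0.34 ± 0.06 (adjusted p = 0.00193, limma), and it was the 1 member whose ranges did not overlap, against 0.893% of all genes. No refit ended either call (adjusted p at most 0.000735 and 0.034). The pump subunits did not pass here, with 95% intervals of -0.14 to 0.06 for Atp6v1b1, -0.22 to 0.11 for Atp6v0d1 and -0.18 to 0.31 for Atp6v0c. Without PTH libraries 5 to 8, 11 members were called (17.0% of all genes), among them Slc4a4 at 0.70 and Kit at 0.52, and without PTH replicate 5 there were 4.

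Genes around the pump were counted in the same model, where 6.00% of all genes were higher and 11.1% lower after PTH. After YKL-05-099 these shares were 6.26% and 11.5%. Of 17 V-ATPase accessory and assembly genes, 2 were higher and 1 lower after PTH, and 3 were higher and 0 lower after YKL-05-099. Atp6ap1, which encodes the accessory protein Ac45 of the V0 domain, was at 67.2 ± 5.24 FPKM in vehicle, 77.0 ± 7.55 after PTH and 81.2 ± 5.61 after YKL-05-099 (log2 difference 0.19, adjusted p = 0.0289, and 0.27, adjusted p = 0.0036, limma). Rnasek, which encodes a V0-associated protein, was at 121 ± 20.1, 164 ± 45.6 and 187 ± 28.2 FPKM (0.41, adjusted p = 0.0463, and 0.64, adjusted p = 0.00338, limma). Rogdi, a member of the assembly factor group, rose by 0.47 after YKL-05-099 (adjusted p = 0.00468, limma), and Ccdc115, an assembly factor, fell by 0.29 after PTH (adjusted p = 0.0262, limma). The median of the 17 was 0.05 and 0.09.

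Of 26 lysosome genes, 2 were higher and 2 lower after PTH, and 6 higher and 2 lower after YKL-05-099. Their medians were 0.05 and 0.07. Over all genes 6.00% were higher and 11.1% lower after PTH, and 6.26% and 11.5% after YKL-05-099. Gaa, the acid glucosidase, was at 18.2 ± 1.05 FPKM in vehicle and 25.5 ± 2.74 after YKL-05-099 (0.48, adjusted p = 0.00118, limma), while Npc2, a cholesterol carrier, fell by 0.31 (adjusted p = 0.00061, limma). Among 9 other carbonic anhydrases Car15, a membrane-anchored form, rose by 0.26 after PTH (adjusted p = 0.00729) and by 0.53 after YKL-05-099 (adjusted p = 1.21e-05, limma). Of 20 other transport genes for bicarbonate, chloride and protons, Slc9a8 and Atp4a were higher in both comparisons and none was lower. Of 10 genes of ammonia formation and transport, 3 were higher after PTH and 4 after YKL-05-099, and none was lower, with Got1 (0.64 and 0.38, adjusted p = 2.42e-05 and 0.00689, limma) in both.

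Of 17 other intercalated cell genes tested, 1 was higher and 1 lower after PTH, and 2 were higher and 2 lower after YKL-05-099. Shares of all genes were 6.00% and 11.1% after PTH, and 6.26% and 11.5% after YKL-05-099. Medians of these 17 were -0.04 and -0.12. The homeobox gene Hmx2 fell from 3.998 ± 0.51 to 2.74 ± 0.50 FPKM after YKL-05-099 (-0.54, adjusted p = 0.00704, limma) and stood at 5.31 ± 1.36 FPKM after PTH. Dmrt2, a transcription factor of type A cells, rose from 3.25 ± 0.86 to 5.10 ± 1.35 FPKM after YKL-05-099 (0.63, adjusted p = 0.00537, limma). Tmem213, a membrane protein gene of these cells, rose by 0.31 (adjusted p = 0.00751, limma). Tfcp2l1, a transcription factor of the collecting duct, fell by 0.29 after PTH (adjusted p = 0.0283, limma).

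Of the 12 intercalated cell markers, 1 was lower after PTH (11.1% of all genes) and 4 after YKL-05-099 (11.5% of all genes), and 0 were higher (6.00% and 6.26% of all genes). Their median was -0.05 and -0.14. Of 12 principal cell markers 0 were called after PTH, and 1 was higher after YKL-05-099, Scnn1g. Of 6 distal convoluted tubule markers, 2 were lower after PTH (Trpm6 and Calb1) and 2 after YKL-05-099 (Trpm6 and Pvalb), and 0 were higher. Their median was -0.23 and -0.16. Of 6 thick ascending limb markers 0 were called. Leukocyte markers moved with YKL-05-099. Of 6, 4 were lower (Ptprc, Cd52, Coro1a and Cd48), and they summed to 19.7 to 31.8 FPKM in vehicle and 10.2 to 19.9 FPKM after YKL-05-099. Urothelium markers, from tissue that lines the renal pelvis, summed to 2.83 to 35.4, 1.63 to 65.8 and 1.96 to 39.6 FPKM, and none was called. The part of these cell types in the members' results was not tested.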

How the data were processed

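Trizol-extracted RNA of whole kidneys was made into nanoball libraries for the BGISEQ500, as labelled. FPKM values, computed by the authors, were deposited as 1 table with 2 decimals. Notes of the submitters on processing list DESeq2, RSEM 1.3.0, STAR 2.7.2b, mm10 and GRCm38, and a strand setting is not given in the sources used here, so overlapping genes cannot be told apart. Not used was 1 column, a repeat of PTH replicate 3. Without counts no count model was fitted. Log2(FPKM + 0.1) values, which understate changes of low genes, were fitted in limma 3.58.1 (R 4.3.3) over 13991 genes that averaged 0.5 FPKM or more, 8 libraries per group, with Benjamini-Hochberg adjustment over all of them. Python 3.11.15 was used for tables and figures (matplotlib 3.10.9, numpy 2.4.6, pandas 2.3.3). Depth came from genes of 700 to 1200 bases, where 80.5% to 88.1% of 189 to 238 low values per library lay within 0.2 of a whole fragment. The model was run on simulated data with independent noise. These held neither the division of the PTH libraries nor the slopes, so that run does not bear on them. Alternatives covered pseudocount, filter, scaling, weights, block, covariates and each library left out, and those on PTH libraries 1 to 4 and 5 to 8 and on slopes were added after the data were seen.

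The members and lists were chosen with earlier results of these data known. All members may be named, values per group are given for those called against vehicle and for Foxi1, Atp6v1b1, Atp6v1b2, Slc4a1, Slc26a4 and Kit, and of each list up to 3 genes with the smallest adjusted p per comparison, with further called genes listed by name only. Slc4a4 and Atp6v0a4 were described by library after their values were seen.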

Additional observations from a re-analysis of the deposited data

Results flagged for a closer look

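In each group of 8 libraries a value was marked where its gap to the nearest other value exceeded Dixon's 95% critical share of the group's range. Of 111 groups, 10 had such a value, and chance marks about 1 in 20. PTH replicate 4 was the highest of its group for Atp6v1f (326.57 FPKM, next 216.8), Car14 (139.6 FPKM, next 101.44), Atp6v0b (112.91 FPKM, next 78.33) and Rhcg (64.33 FPKM, next 50.83). This is the library with the GC slope of 0.31, and the part of that slope in these values was not tested. Vehicle replicate 2 was highest for Atp6v1f (243.2 FPKM, next 219.31) and vehicle replicate 7 for Slc4a1 (18.85 FPKM, next 13.83). PTH replicate 2 was highest for Hepacam2 (15.92 FPKM, next 14.02), and PTH replicate 8 lowest for Slc4a8 (1.01 FPKM, next 1.48). YKL-05-099 replicate 8 was highest for Atp6v1d (113.54 FPKM, next 97.99), and replicate 1 for Slc4a8 (2.01 FPKM, next 1.59). Without YKL-05-099 replicate 8 the Atp6v1d difference after YKL-05-099 passed (adjusted p = 0.0421, limma, against 0.142 with it), and no other marked library decided a call of its gene.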

How the results depend on the processing

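The number of members called after PTH, 6, became 14 without PTH libraries 1 to 4, and over the 24 libraries left out in turn ran from 3 to 8, lowest without PTH replicate 5. That after YKL-05-099, 12, became 6 with the slope covariates and ran from 9 to 13 over libraries left out. That for YKL-05-099 against PTH, 2, became 11 without PTH libraries 5 to 8 and 4 with the slope covariates, and ran from 2 to 4, highest without PTH replicate 5. The direction turned for Slc4a4 after PTH without libraries 5 to 8 (-0.44) and for Atp6v0a4 after PTH without libraries 1 to 4 (0.30). The cause of these changes was not tested. Under the filters, pseudocounts, weights, principal cell covariate, block and scalings the total counts of members called stayed within 1.5 times those given, and no member turned direction among those called.

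With the replicate number as a block, 5 members were called after PTH, 10 after YKL-05-099 and 2 for YKL-05-099 against PTH, with Atp6v1g1, Car14 and Atp6v1c2 losing their calls. Over 24 pairs the correlation of same-numbered libraries ran from -0.201 to 0.202, with 1 above 0.1. Little variation was thus shared by number, and the labels do not say whether the numbers pair the samples. Median-ratio scaling moved the share of higher calls over all genes from 35.0% to 50.1% after PTH and from 35.3% to 49.5% after YKL-05-099, and members were then called 5 higher and 1 lower, and 7 higher and 4 lower. Depth limits Slc26a7 and Atp6v1e2, whose levels rest on few fragments.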
